A study of Mus musculus with 6 samples.

Results

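Granule and lineage genes of eosinophils were followed here. With earlier results of these data known, they were chosen by name and not by a threshold on their values. They are Prg2, Prg3, Epx, Ear1, Ear2, Ear10 and Il5ra, 7 genes in a table of 19938 genes that had a probe set of their own. Eosinophils are granulocytes that grow from marrow progenitors under the cytokines IL-5, IL-3 and GM-CSF. Their granules store cationic proteins that damage parasites and host tissue: the major basic proteins, a haem peroxidase that makes hypobromous acid, and ribonucleases, which in the mouse form the expanded Ear family. The receptor for IL-5 pairs a specific alpha chain with the beta chain that is also used for IL-3 and GM-CSF, and in the mouse B-1 cells carry it as well.

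The question was whether ultraviolet (UV) light on the skin of a marrow donor alters dendritic cells grown afterwards from the marrow of a recipient. The UV-donor group came from female C57BL/6J recipients of 2000000 marrow cells from congenic B6.SJL-Ptprca donors that had been given up to 8 kJ/m2 of broadband UV on shaved back skin, and the naive-donor group from recipients of the same number of cells from naive B6.SJL-Ptprca donors. Donor cells bore the CD45.1 alloantigen and recipient cells CD45.2, and the labels do not say how much of the cultured marrow was of donor origin. The design text gives an age of 6 to 10 weeks at irradiation and no other age. Marrow of both groups was cultured for 5 days in 10 ng/ml GM-CSF together with 10 ng/ml IL-4, and cells carrying CD11c were enriched to above 95% on magnetic beads. RNA of 3 preparations a group was hybridised to 6 one-colour arrays. Separate mice are not named for the preparations, so p-values describe only how these preparations scattered, possibly for technical reasons. Each array measured a whole preparation, so more cells of a type and more RNA per cell cannot be told apart.

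Of the 7 genes, 4 had a probe set in the platform annotation used here: Prg2, Prg3, Epx and Il5ra, with 1 probe set each and none of them shared with another gene. No probe set was listed for Ear1, Ear2 or Ear10, alone or together with other Ear genes, and these 3 were not analysed here. Genes with a mean log2 signal under 6.58, the 30th percentile, were set aside as dim before testing, which left 13956. Prg2 and Prg3 passed this filter, and Epx and Il5ra did not.

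Ear genes lie in a cluster of close copies. Upstream windows of Ear1, Ear2, Ear10, Ear6, Rnase2a and Rnase2b (250 bases before the annotated start, RefSeq, GRCm38.p6) were 85.7% to 99.2% identical over aligned bases in the 15 pairs, with Ear1 and Ear2 the closest pair. The window of Ear14 was not compared. Probe and transcript sequences were not compared either, so sharing of probes between Ear copies was not tested, and values of single Ear genes below are uncertain and stand as the platform annotation names them.

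RefSeq windows of the same kind were held for 6 of the 7 genes, all but Prg2. Those of the other 3 measured genes are shown because Epx passed an adjusted test and Prg3 and Il5ra passed none. Capitals mark a GATA motif, searched on both strands as AGATAA or TGATAA, or as either with G for its last letter. The Epx window (chr11:87875537-87875786, minus strand) held none, the Prg3 window (chr2:84987965-84988214, plus strand) 1 and the Il5ra window (chr6:106749038-106749287, minus strand) 1.
Epx: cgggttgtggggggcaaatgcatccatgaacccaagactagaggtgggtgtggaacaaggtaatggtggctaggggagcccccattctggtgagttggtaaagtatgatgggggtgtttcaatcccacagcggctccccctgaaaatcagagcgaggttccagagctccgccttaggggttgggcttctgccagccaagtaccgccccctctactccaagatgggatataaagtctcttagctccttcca
Prg3: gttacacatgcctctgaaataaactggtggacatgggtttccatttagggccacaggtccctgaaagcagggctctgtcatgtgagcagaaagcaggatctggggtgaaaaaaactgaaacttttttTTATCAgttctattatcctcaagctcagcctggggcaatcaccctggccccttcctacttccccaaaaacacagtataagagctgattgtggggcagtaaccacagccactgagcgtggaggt
Il5ra: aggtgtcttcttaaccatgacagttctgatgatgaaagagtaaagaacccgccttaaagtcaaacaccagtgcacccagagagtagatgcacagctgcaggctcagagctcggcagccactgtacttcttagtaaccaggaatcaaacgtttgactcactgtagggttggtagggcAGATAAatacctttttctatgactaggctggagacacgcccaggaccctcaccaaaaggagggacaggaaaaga
Of 32851 windows of this length, 26.5% held at least 1 GATA motif. The C/EBP motif TTNCNNAA was found in the Prg3 window and not in the Epx or Il5ra windows, against 36.8% of all windows, and overlapped no GATA motif. The PU.1 motif GAGGAA was in none of these 3 windows, against 23.3% of all. A match of letters is a description of the window and not of binding.

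Signals of the granule genes Prg2 and Epx were higher on every UV-donor array than on any naive-donor array, by 1.68-fold and 1.32-fold. Prg3, the neighbour and homologue of Prg2, lay near the dim threshold and differed by 1.05-fold with overlapping groups. The receptor gene Il5ra had slightly lower values in the UV-donor group. None of the tested genes of the list passed the adjusted test with all 6 arrays, while Epx passed in the gene fit that kept dim genes.

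Prg2 (probe set 10473399) encodes major basic protein, the most abundant protein of the eosinophil granule core, and is also made by basophils and mast cells. Its log2 signals were 7.69, 7.62 and 7.59 on the UV-donor arrays, against 7.26, 6.66 and 6.73 on the naive-donor arrays. The UV-donor arrays lay close together and above all naive-donor arrays, of which replicate 1 stood apart as the highest. Means were 7.63 ± 0.05 in the UV-donor group and 6.88 ± 0.33 in the naive-donor group (SD, n = 3 each). The difference was 0.75 (SE 0.14, 95% interval 0.43 to 1.07), with a limma adjusted p of 0.105 over 13956 genes, which did not pass 0.05. Without naive-donor replicate 1 the difference was 0.94 and the limma adjusted p was 0.0116. Prg2 was then the only gene of the 13956 to be called, so the share called, 0.00717%, is Prg2 itself and no background for it. The array left out held the highest naive-donor value of Prg2, so the larger difference follows from that value. Without any 1 of the other arrays the difference lay between 0.64 and 0.77 and did not pass.

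Prg3 (probe set 10473406) encodes the homologue of major basic protein and is the next protein-coding gene to Prg2 in RefSeq. Its log2 signals were 6.63, 6.69 and 6.68 on the UV-donor arrays, against 6.74, 6.53 and 6.53 on the naive-donor arrays. The mean of 6.63 over all arrays was just above the dim threshold of 6.58, and naive-donor replicates 2 and 3 lay below it. The groups overlapped, with naive-donor replicate 1 the highest of all 6 arrays, as it was the highest naive-donor array for Prg2. The difference was 0.07 (SE 0.07, 95% interval -0.09 to 0.22, limma adjusted p = 0.671). The genes on the outer sides of the pair, Slc43a3 and P2rx3, differed by -0.01 and -0.08 without passing.

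Epx (probe set 10389654) encodes eosinophil peroxidase, the haem enzyme of the granule matrix. Its log2 signals were 6.55, 6.43 and 6.52 on the UV-donor arrays, against 6.15, 6.07 and 6.07 on the naive-donor arrays. The groups did not overlap, and each was tighter than the gap between them. Means were 6.50 ± 0.06 in the UV-donor group and 6.10 ± 0.05 in the naive-donor group (SD, n = 3 each), all below the dim threshold, so Epx was outside the main test. In the fit of all 19938 genes it was higher by 0.40 (SE 0.05, 95% interval 0.28 to 0.53, limma adjusted p = 0.0479). That fit called 23 genes, all higher in the UV-donor group, and Epx was the 1 among them below the dim threshold. The call rested on all 6 arrays: with any 1 left out the difference was 0.38 to 0.44 and the limma adjusted p 0.0982 to 0.200. With all arrays and no dim filter it also ended when the 23410 probe sets were tested singly (limma adjusted p = 0.0599), with the replicate block (0.145) and with quantile normalization (0.0589).

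Il5ra (probe set 10546762) encodes the IL-5 receptor alpha chain. Its log2 signals were 4.71, 4.84 and 4.85 on the UV-donor arrays, against 4.96, 4.87 and 4.89 on the naive-donor arrays. Every UV-donor array was lower, by small amounts, and all values were well under the dim threshold. The difference was -0.11 (95% interval -0.24 to 0.03), with a limma adjusted p of 0.463 in the fit of all genes.

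**Figure D1:**
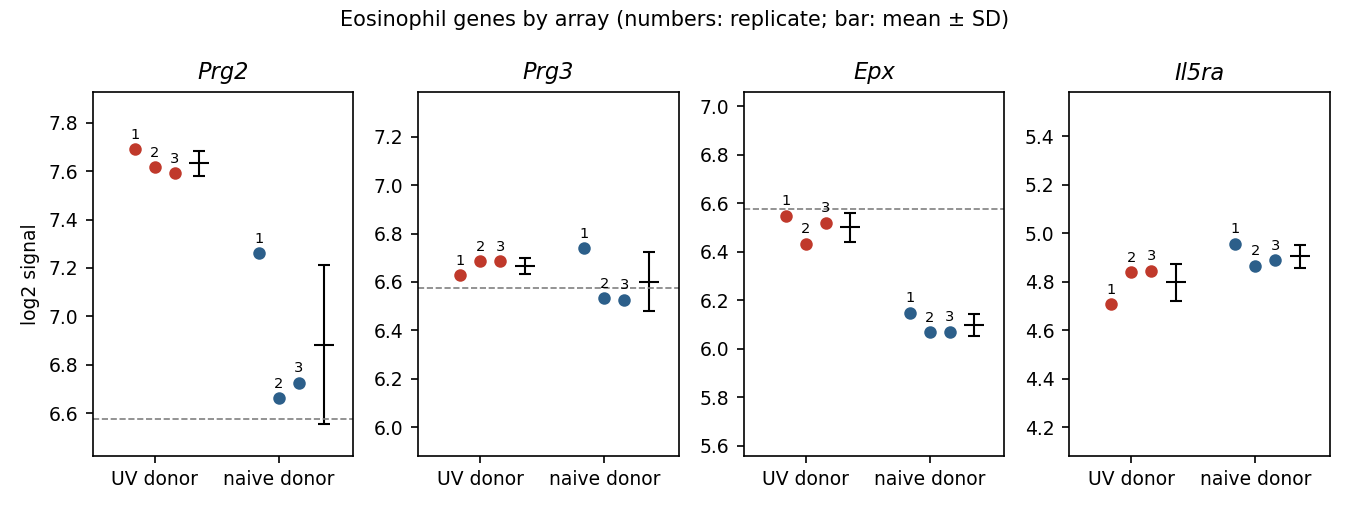
Log2 signal of Prg2, Prg3, Epx and Il5ra on each array, with UV-donor arrays left and naive-donor arrays right in each panel, replicate numbers above the points, and the mean ± SD as a bar (n = 3 each). The dashed line is the dim threshold of 6.58. Prg2 and Epx points of the 2 groups do not overlap, and naive-donor replicate 1 is the highest naive-donor array for all 4 genes.

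Of the 4 measured genes, 2 had UV-donor values that were all higher and 1 had UV-donor values that were all lower. Among all 19938 genes these shares were 9.53% and 10.1%. The listed genes were chosen with earlier results of these data known, so their counts are a description and no independent evidence. With 3 arrays a group the smallest two-sided p of an exact permutation test is 0.1, which Prg2, Epx and Il5ra reached. For Prg3 the exact permutation test gave p = 0.4. Among the 2 tested genes 0 were called at a limma adjusted p under 0.05 and 1, Prg2, was higher at an unadjusted p under 0.05. Of all 13956 tested genes, 0.172% were called higher, 0% were called lower, 9.6% reached an unadjusted p under 0.05 upward and 5.49% downward. Groups of the tested genes did not overlap for 12.4% upward and 9.37% downward.

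Most relatives of the Ear genes that did have probe sets differed little, and Ear6 was higher on all UV-donor arrays. Of 20 genes, those of the Ear family and the wider RNase A superfamily together with the ribonuclease inhibitor Rnh1, 14 had a probe set of their own and 8 were tested, with 3 higher and 5 lower in value and a median difference of -0.02, against 0.00 over all tested genes. Limma called 0 of them, with 1 higher at an unadjusted p under 0.05. That gene was Ear6, an eosinophil-associated ribonuclease, at 7.20, 7.24 and 7.33 on the UV-donor arrays, against 7.03, 6.78 and 7.09 on the naive-donor arrays. All UV-donor arrays were higher, with a difference of 0.29 (SE 0.08, limma adjusted p = 0.182). Rnase2a, listed in older annotations as Ear11, had a UV-donor mean of 14.03 ± 0.02 and a naive-donor mean of 14.05 ± 0.03 (SD, n = 3 each), a difference of -0.02 with a 95% interval of -0.12 to 0.08. Rnase2b, formerly Ear5, differed by -0.09 and Ear14, which was dim, by -0.10. Rnase6, a ribonuclease of macrophages, differed by 0.15 and the angiogenin Ang4 by -0.13.

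**Figure D2:**
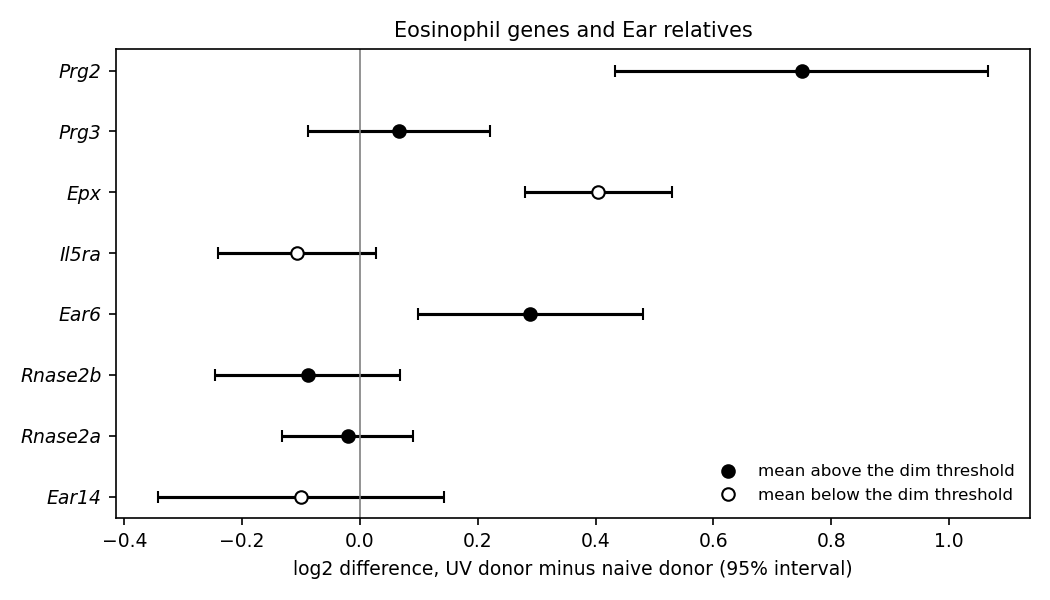
Log2 difference, UV donor minus naive donor, with 95% intervals from the limma fit of all 19938 genes, for the 4 measured eosinophil genes and 4 Ear relatives. Filled points are genes above the dim threshold and open points are dim. The intervals of Prg2, Epx and Ear6 lie above 0, and the others include 0.

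Epx shares its chromosomal cluster with the neutrophil peroxidase Mpo and the secretory peroxidase Lpo, whose signals barely differed. Mpo differed by 0.04 (95% interval -0.09 to 0.18) and Lpo by -0.03 (-0.18 to 0.13). Limma called 0 of these 2 genes, and 0 had an unadjusted p under 0.05.

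Surface receptors and lipid mediators of eosinophils made up a list of 17 genes, of which 12 were tested singly and 9 had higher values (median 0.08). Limma called 0, and 1 gene of the list with array medians centred, with the intensity trend and without naive-donor replicate 2. At an unadjusted p under 0.05 there were 3 upward and 1 downward. The differences of smallest p were those of Adgre1, an adhesion receptor that macrophages also carry (0.51, limma adjusted p = 0.0627), the inhibitory receptor Cd300lf (0.14), the prostaglandin D2 receptor Ptgdr2 (-0.14) and the lipoxygenase Alox5 (0.13). Siglecf, the lectin by which mouse eosinophils are sorted, had log2 signals of 11.33, 11.02 and 10.99 on the UV-donor arrays, against 10.89, 11.03 and 10.85 on the naive-donor arrays. Those groups overlapped, with a difference of 0.19 (SE 0.10, limma adjusted p = 0.385). Ccr3, the eotaxin receptor, was dim on every array and differed by 0.003 (95% interval -0.15 to 0.16 in the fit of all genes). Alox15, the lipoxygenase of eosinophils and of IL-4-treated macrophages, differed by 0.06.

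IL-5 receptor signalling was nearly level. Of 19 tested genes 12 had higher and 7 lower values, with a median of 0.01, and limma called 0. At an unadjusted p under 0.05 there were 1 upward and 1 downward. The shared beta chain Csf2rb differed by -0.04 (95% interval -0.14 to 0.06), the GM-CSF receptor alpha chain Csf2ra by -0.08 and the IL-3 receptor alpha chain Il3ra by -0.07. The feedback inhibitor Socs1 differed by 0.13 and the survival gene Bcl2 by -0.26, with limma adjusted p-values of 0.267 and 0.305.

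Transcription factors of the eosinophil lineage had mostly higher values by small amounts. Of 18 tested, 15 had higher values (median 0.05), and limma called 0. At an unadjusted p under 0.05 there were 2 upward and 1 downward. Gata2, a factor of early eosinophil, basophil and mast cell precursors, had log2 signals of 7.47, 7.46 and 7.51 on the UV-donor arrays, against 7.35, 7.36 and 7.36 on the naive-donor arrays, a difference of 0.12 (limma adjusted p = 0.257). Gata1, which is required for mouse eosinophils, had 6.94, 6.68 and 6.77 on the UV-donor arrays, against 7.01, 6.97 and 6.94 on the naive-donor arrays. It lay lower on all UV-donor arrays, by -0.17 (limma adjusted p = 0.283). Cebpe, a factor of granule protein expression, differed by 0.09, Ikzf2 by 0.18 and Trib1, a regulator of eosinophil identity, by 0.16.

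Attractants and growth factors of eosinophils had lower values in the UV-donor group for 8 of 8 tested genes (median -0.06), against 6897 of all 13956. Limma called 0 of them, and 1 was lower at an unadjusted p under 0.05. That gene was the eotaxin Ccl11, at 6.53, 6.76 and 6.64 on the UV-donor arrays, against 6.84, 6.82 and 6.89 on the naive-donor arrays (difference -0.21, limma adjusted p = 0.199). The eotaxin Ccl24 differed by -0.10, the alarmin Il33 by -0.09 and the type 2 cytokine Il13 by -0.09. The smallest differences of the tested genes were those of Ccl3 (-0.01), Ccl5 (-0.02) and Il25 (-0.02). Array medians were 7.16 to 7.18 in the UV-donor group and 7.19 to 7.23 in the naive-donor group. With array medians centred, the median difference of all tested genes rose from 0.002 to 0.036. That shift is larger than the differences of Ccl3, Ccl5 and Il25, so the 8 of 8 depends on the scaling. The count of lower values was not taken with array medians centred. The gene of IL-5 itself, Il5, was dim and differed by 0.09.

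**Figure D3:**
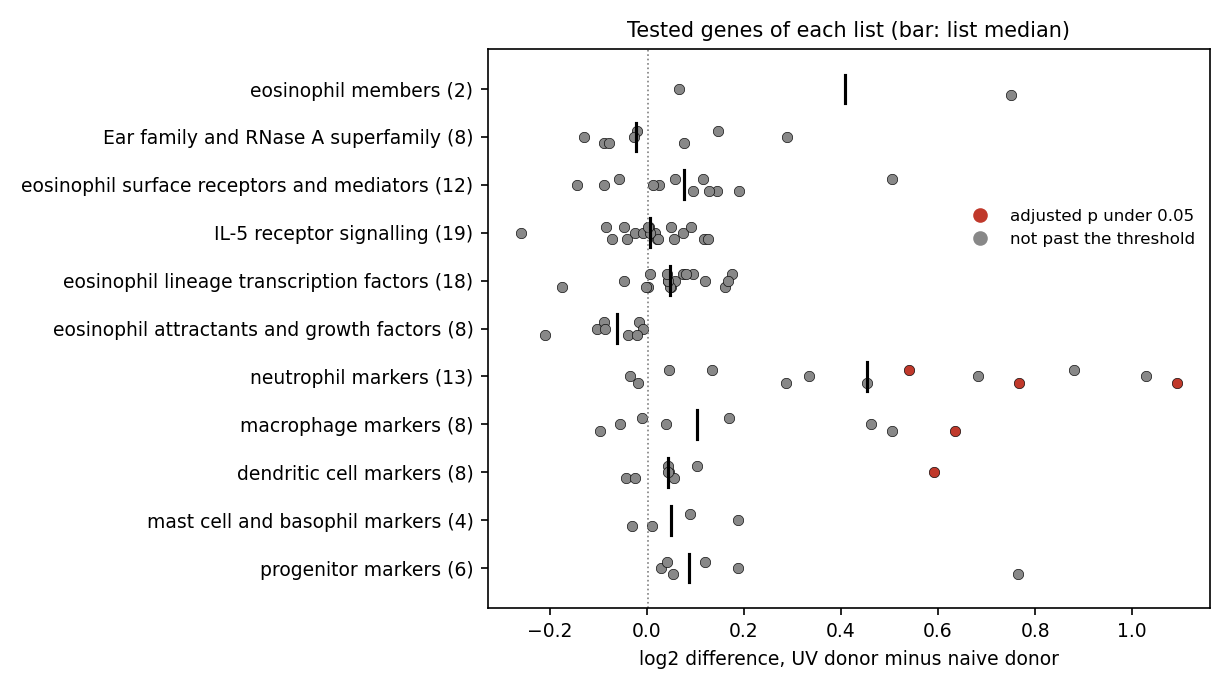
Log2 difference, UV donor minus naive donor, of each tested gene of the eosinophil lists and of marker lists of other cell types, with the number of tested genes in brackets. A bar marks each list's median, the dotted line the median of all tested genes, and red points have a limma adjusted p under 0.05. The row of Ear and RNase A genes also holds the inhibitor Rnh1. The red points are 3 neutrophil markers, 1 macrophage marker and 1 dendritic cell marker.

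Markers of neutrophils had mostly higher values in the same arrays. Of 13 neutrophil markers 11 had higher values (median 0.45), 9 were higher without overlap and 3 were called (Ltf, S100a8 and Ms4a3), against 12.4% without overlap and 0.172% called among all genes. The mean of their centred signals lay between 0.12 and 0.30 in the UV-donor group, against -0.30 to -0.15 in the naive-donor group. Mpo, Elane and Camp were among the markers whose groups overlapped. Ngp (1.03), Ltf (0.54), Mmp8 (0.45) and Mmp9 (0.33) were among those higher without overlap. Of 8 macrophage markers 5 had higher and 3 lower values, and 4 were higher without overlap, against 12.4% of all tested genes. Those 4 were C1qb (0.63), Adgre1 (0.51), C1qc (0.46) and C1qa (0.17). The lower ones were Mrc1 (-0.10, lower on every UV-donor array), Mertk (-0.06) and Cd68 (-0.01). Limma called 1 of the 8, C1qb. The list had centred means of 0.07 to 0.14 in the UV-donor group, against -0.11 to -0.10 in the naive-donor group. These marker calls depended on single arrays. Without UV-donor replicate 2, UV-donor replicate 3 or naive-donor replicate 1, 0 markers of either list were called. The same held without naive-donor replicate 3 and with the replicate block. In these settings only 0 to 3 genes of all were called higher. Without naive-donor replicate 2, 1 neutrophil and 2 macrophage markers were called. Without UV-donor replicate 1, 4 neutrophil markers and 1 macrophage marker were called. The part of these markers in the differences of Prg2 and Epx was not tested. The enriched antigen Itgax (CD11c) differed by -0.04 (95% interval -0.14 to 0.06). Of the 11 dendritic cell markers, Flt3, Clec9a and Xcr1 were dim, and the list median was 0.04. Cd209a was called, and its call was lost without UV-donor replicate 2, UV-donor replicate 3 or naive-donor replicate 1, with the replicate block and with all probe sets tested together. Of 6 tested progenitor markers 6 had higher values (median 0.09), with 0 called by limma and 2 at an unadjusted p under 0.05. Their differences ran from 0.03 to 0.76, and 2 were higher without overlap, against 12.4% of all tested genes. Gata2 and Sox4 stood both in this list and among the lineage transcription factors.

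Mast cell and basophil markers are of interest because these cells also make Prg2. Of 9, 4 were tested (median 0.05), and limma called 0, with 0 at an unadjusted p under 0.05. Cpa3 and Mcpt8, both dim, are 2 of the 9 that were chosen after their values were seen. Cpa3, the mast cell carboxypeptidase, had 6.31, 6.33 and 6.91 on the UV-donor arrays, against 6.71, 5.97 and 5.95 on the naive-donor arrays. Mcpt8, the basophil protease, had 5.47, 5.49 and 5.53 on the UV-donor arrays, against 5.48, 5.15 and 5.14 on the naive-donor arrays. The groups overlapped for both genes, with naive-donor replicate 1 well above the other naive-donor arrays. In the fit of all genes Cpa3 differed by 0.31 and Mcpt8 by 0.24, with limma adjusted p-values of 0.581 and 0.323. The other markers of the list did not all share this. Naive-donor replicate 1 was not raised for Hdc or Ms4a2. Mcpt4 was lower on every UV-donor array (-0.18, limma adjusted p = 0.366 in the fit of all genes). Prss34 and Fcer1a each differed by -0.03. Outside the list, naive-donor replicate 1 was raised for the neutrophil marker Ly6g (9.13, against 8.37 and 8.44). The same held for both probe sets shared by Ly6c2 and Ly6c1, and not for Ltf or the monocyte marker F13a1. Of 4 tested monocyte markers 2 had higher and 2 lower values, and limma called 0. F13a1 (0.50, limma adjusted p = 0.222) was the 1 higher without overlap, against 12.4% of all tested genes. Nr4a1 differed by 0.03, Ccr2 by -0.02 and Cx3cr1 by -0.03. Both probe sets shared by Ly6c2 and Ly6c1 were also higher on every UV-donor array, by 0.62 and 0.52. Their limma adjusted p-values in the probe set test were 0.161 and 0.205.

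The tested genes whose centred signals over the 6 arrays lay nearest to Prg2 were Asb2, C1qb, Cd209a, S100a9 and P2ry13, by root mean square differences of 0.18 to 0.19 on the log2 scale. Asb2, a subunit of a ubiquitin ligase, Cd209a, a lectin, and P2ry13, an ADP receptor, were called higher, with differences of 0.72, 0.59 and 0.70, and these calls were lost without naive-donor replicate 1, when Prg2 alone was called. S100a9, a calcium-binding protein of neutrophils and monocytes, shared the raised naive-donor replicate 1, with 8.18, 8.66 and 8.65 on the UV-donor arrays, against 8.17, 7.60 and 7.67 on the naive-donor arrays. It was not called (difference 0.68, limma adjusted p = 0.157).

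**Figure D4:**
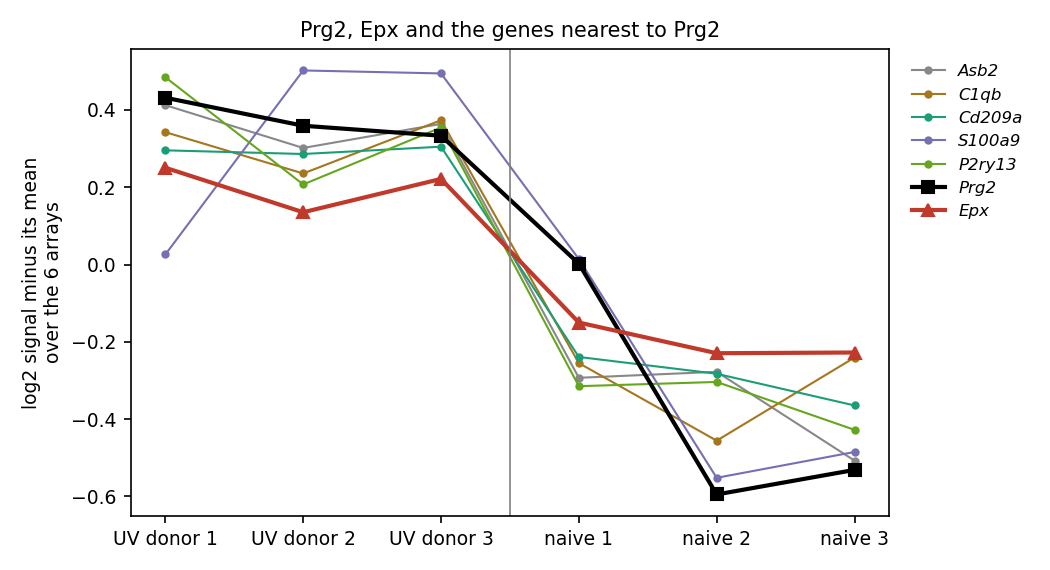
Log2 signal of Prg2, Epx and the 5 genes nearest to Prg2, each minus its own mean over the 6 arrays, with UV-donor arrays left and naive-donor arrays right. Lines join the values of a gene and imply no order. Prg2 and S100a9 are near 0 on naive-donor replicate 1, and the other genes are lower there.

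**Figure D5:**
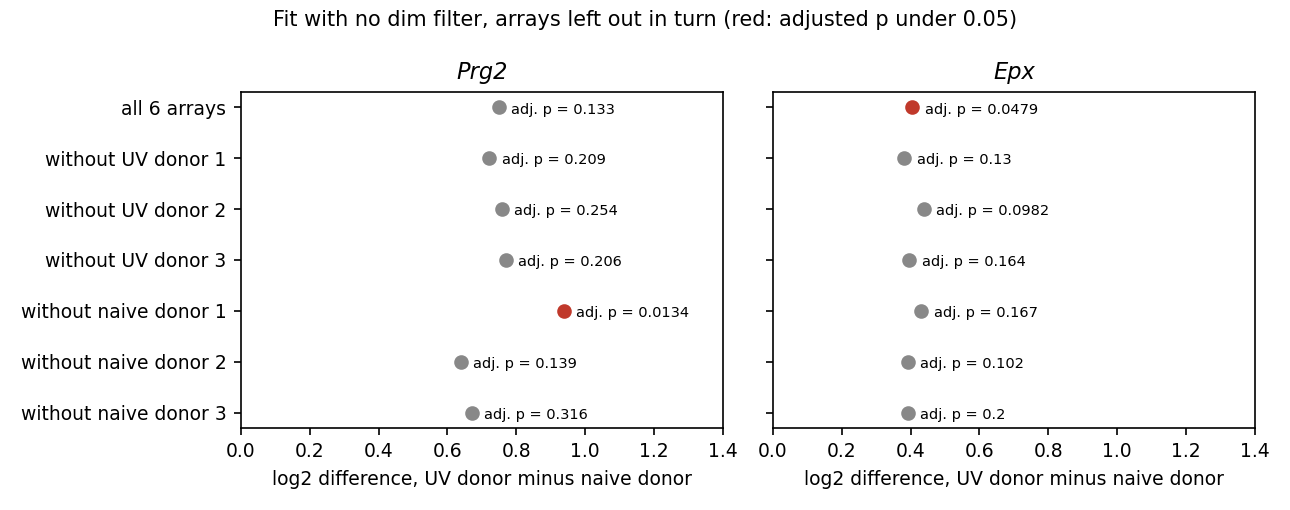
Log2 difference, UV donor minus naive donor, of Prg2 and Epx in the limma fit of all 19938 genes with all arrays and with each array left out, red where the adjusted p is under 0.05. Epx stays between 0.38 and 0.44 when an array is left out, and Prg2 between 0.64 and 0.94.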

How the data were processed

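The deposited table holds 1 log2 signal per probe set for each of 6 arrays, which the authors normalized by RMA, per the submitters' processing notes, which also name oligo and limma without versions. Neither the summary level nor a scan date was given in the sources used here, and no batch was tested. Values were used as deposited. Arrays were assigned to 3 UV-donor and 3 naive-donor samples by title, and no column of other samples was present. Their number limits the precision.

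Genes came from the platform annotation: of 35556 probe sets 21789 had 1 symbol, 1621 had several and 12146 were not listed. The brightest 1-symbol probe set stood for each gene, and genes under the 30th percentile of mean signal were left out. The test was that of limma 3.58.1 run in R 4.3.3 (lmFit, eBayes, two-sided, Benjamini-Hochberg over all tested genes, call at an adjusted p under 0.05). A second limma fit took every annotated probe set. The scripts were tested on simulated data. Upstream sequences were aligned with Biopython 1.88 and figures drawn with matplotlib 3.10.9.

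The members and lists were chosen with earlier results of these data known. The text names all members, up to 4 genes of smallest p in each eosinophil list, a few defining genes, and the 5 genes nearest to the member with the largest difference. Other genes named are the called markers, list members given for context and chromosomal neighbours. Alternatives covered the replicate block, dim filters, normalizations, variance prior, array weights, probe set choice and leaving out each array.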

Additional observations from a re-analysis of the deposited data

How the results depend on the processing

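The call of Epx depends on the filter: its difference of 0.40 was untested at the 30th percentile, passed with no dim filter, and had limma adjusted p-values of 0.0599 in the probe set test with no dim filter and 0.311 with all probe sets tested together. In combinations with no dim filter, chosen after seeing the data, its call was kept with centred medians, cyclic loess (0.45), the intensity trend, array weights and the mean of probe sets (adjusted p 0.0343 to 0.0468). It was lost with quantile normalization (0.0589), the replicate block (0.145) and each array left out. Prg2 passed only without naive-donor replicate 1 (0.94), in both the gene and the probe set test, with single-array differences of 0.64 to 0.94. The 50th percentile filter left both untested. The number of the listed eosinophil genes called was 0, and 1 with no dim filter, and 0 to 1 with arrays left out. No member changed direction under any setting.

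The count of genes called higher was 24. It was 0 with the replicate block or all probe sets, 43 with centred medians, 42 with an intensity trend, 39 with array weights, 61 at an adjusted p under 0.10 and 1 to 32 with arrays left out: 1 without naive-donor replicate 1, UV-donor replicate 2 or UV-donor replicate 3, and 3 without naive-donor replicate 3. The count called lower was 0 (766 at an unadjusted p under 0.05), 1 with quantile normalization, 3 with an intensity trend, 4 with array weights, 9 at an adjusted p under 0.10 and 0 to 1 with arrays left out. The cause of these shifts was not tested.

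No common pairing by replicate number showed over all tested genes. Arrays of the same number deviated from their group means with correlations of -0.13, -0.22 and 0.15. Pairing for single genes was not tested. Under the replicate block Prg2 still differed by 0.75, with an SE of 0.11, against 0.14 in the main fit. Its limma adjusted p was 0.135, against 0.105 in the main fit.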
